A study of Mus musculus with 6 samples.

Results

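Erythroid and iron-export transcripts were followed in NK cells sorted from spleen, intestine and skin. The set had 7 genes of 31484 gene symbols on the array: the globins Hbb-b1 and Hba-a1, the haem synthesis gene Alas2, the red cell membrane genes Slc4a1 and Sptb (under its older symbol Spnb1 in the file), the transcription factor Nfe2, and Slc40a1, which encodes the iron exporter ferroportin. Members were chosen by symbol, on measured values, because earlier results from the same arrays showed them high in spleen. Their spleen differences are therefore given as a description, without a test. The tissue comparison that this choice did not use, intestine against skin, was tested. In all, 17 of the 46643 probes carried a member symbol, 11 of them for Hbb-b1 and 1 for each of the other 6 genes. The probes of Hbb-b1 share a target and are not replicates of a condition.

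The cells came from 12-week-old male RAG-2-KO mice of the C57BL/6 strain, which lack the recombinase needed for T and B cells. They were sorted as CD45+ CD3- NKp46+ and, in the spelling of the labels, NK11+, so that spleen, intestine (gut lamina propria) and skin groups shared genotype, strain, sex and age and differed by tissue. Each tissue had 2 Illumina mouse BeadChip arrays, 6 arrays in all, with the replicates numbered I of the 3 tissues on 1 slide and those numbered II on the other. Nothing states that the replicates came from separate mice, and the p-values then reflect only how far these samples differ, in part perhaps for technical reasons.

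Red cells carry oxygen on haemoglobin, a tetramer of α- and β-globin chains that each hold a haem group. Alas2 starts haem synthesis in erythroid cells, the anion exchanger encoded by Slc4a1 and β-spectrin encoded by Sptb form part of the red cell membrane and its skeleton, and Nfe2 is the larger subunit of a factor known from globin gene control and platelet formation. The spleen filters aged red cells, which its red pulp macrophages break down, and ferroportin returns the iron to the plasma. In mice the spleen can also make red cells.

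The promoters of the members that the RefSeq table (build GRCm38.p6) held are shown because these genes were high on the same arrays. The table matched 3 of the 7 members, Hba-a1, Alas2 and Sptb. Hbb-bs, an adult β-globin gene of the C57BL/6 haplotype, is shown beside them, since the array's Hbb-b1 probes may bind its near-identical transcript. Each line gives the 250 bases before the transcription start, 5′ to 3′ on the gene's strand, and capitals mark matches to the GATA type motif AGATAA, to its common variant TGATAA, to CCACACCC (the CACC box bound by Klf1) and to CCGCCC (a GC box), on either strand.
Hba-a1, chr11:32283422-32283671, plus strand: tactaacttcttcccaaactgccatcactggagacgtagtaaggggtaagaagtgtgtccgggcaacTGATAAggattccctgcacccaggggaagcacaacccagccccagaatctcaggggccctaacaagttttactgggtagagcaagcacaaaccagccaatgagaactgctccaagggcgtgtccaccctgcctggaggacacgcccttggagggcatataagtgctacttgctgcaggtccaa
Alas2, chrX:150547167-150547416, plus strand: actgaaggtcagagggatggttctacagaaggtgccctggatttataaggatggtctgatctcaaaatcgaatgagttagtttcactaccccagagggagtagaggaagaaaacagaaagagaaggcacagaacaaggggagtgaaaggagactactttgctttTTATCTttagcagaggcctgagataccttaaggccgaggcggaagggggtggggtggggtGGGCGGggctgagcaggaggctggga
Sptb, chr12:76710548-76710797, minus strand: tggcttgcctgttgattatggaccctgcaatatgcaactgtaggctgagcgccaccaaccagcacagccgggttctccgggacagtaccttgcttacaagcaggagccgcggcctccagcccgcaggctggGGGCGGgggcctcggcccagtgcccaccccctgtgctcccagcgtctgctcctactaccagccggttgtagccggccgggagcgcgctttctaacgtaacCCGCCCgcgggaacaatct
Hbb-bs, chr7:103827929-103828178, minus strand: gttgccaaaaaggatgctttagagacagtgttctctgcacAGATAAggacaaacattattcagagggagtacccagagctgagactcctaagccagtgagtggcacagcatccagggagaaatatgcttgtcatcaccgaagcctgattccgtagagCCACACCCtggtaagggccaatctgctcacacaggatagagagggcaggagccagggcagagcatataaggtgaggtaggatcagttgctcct
TGATAA began 183 bases before the start of Hba-a1, and AGATAA lay 86 bases before that of Alas2 on the opposite strand and 210 bases before that of Hbb-bs. The CACC box began 93 bases before the start of Hbb-bs. CCGCCC or its complement lay 26 bases before the start of Alas2 and 119 and 19 bases before that of Sptb. Hbb-bt, the paired adult β-globin gene, was searched as well and held no match to any of the motifs. TGAGTCA (the core of the NF-E2 and AP-1 site) and CAGCTG (an E box) were also searched and matched none of the 3 members. TGAGTCA lay after the start of Hbb-bs, at position 27 on the opposite strand, outside the bases shown. Counted on both strands over 32851 RefSeq promoters of 300 bases (250 before and 50 after the start), AGATAA occurred in 11.2%, TGATAA in 9.05%, CCACACCC in 3.56% and CCGCCC in 35.7%. In the same count TGAGTCA occurred in 5.2% and CAGCTG in 16.3%. A match is a description, not a binding site. The Hba-a1 and Hba-a2 windows were the same sequence shifted by 3 bases (297 of 297 identical), which shows how alike the paired α-globin copies are at their starts. A transcript of Hba-a2, which has no symbol of its own on the array, may be read by the Hba-a1 probe.

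Signals are the deposited average bead intensities, which had been background-subtracted (a value can be below 0) and scaled to a mean of 83.1 on every array. Where a tissue has 2 values they are those of replicates I and II, in that order. A probe is called detected where its detection p was under 0.01. Differences are on the log2(signal + 16) scale after quantile normalization, a scale that shrinks differences of dim genes, with ± marking the SE of a limma fit on all 6 arrays (2 per tissue). A called gene had a Benjamini-Hochberg adjusted p under 0.05. Detected probes were 39.2% and 39.7% of all probes in spleen, 35.5% and 32.8% of those in intestine, and in skin 32.6% and 35.3%, so dim genes were measured less well outside spleen. Ncr1, which encodes the sorted receptor NKp46, was detected on all 6 arrays, with means of 70.5 (spleen), 12.8 (intestine) and 32.8 (skin). Of the chains of the CD3 complex used for exclusion, Cd3e was detected on none, while Cd3d and Cd3g were detected on all 6. Cd3g had 109 and 81.4 in spleen, 312 and 597 in intestine, with 54.6 and 59.4 in skin. The deleted gene Rag2 was at 2.88 and 6.81 (spleen), 7.84 and 13.2 (intestine), with 0.341 and 9.50 in the skin. It was detected on 4 arrays, all but spleen replicate I and skin replicate I. Detection goes against the knockout label if the probe lies within the deleted part and checks nothing if it lies outside, which was not tested.

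Haemoglobin transcripts were detected on all 6 arrays, and both globin genes were many times higher in spleen than in intestine or skin. The brightest Hbb-b1 probe, for an adult β-globin chain, had signals of 7318 and 10873 in spleen, against 673 and 428 in intestine and 628 and 494 in skin. Its difference was 4.22 ± 0.23 for spleen against intestine and 4.22 ± 0.23 for spleen against skin. Both spleen arrays lay above all 4 others, and the intestine and skin arrays overlapped. In these sorted bulk samples, fewer cells of a type and less RNA per cell cannot be told apart.

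The other Hbb-b1 probes followed the brightest one. Of 11 probes, 10 passed the detection filter and 8 exceeded a signal of 1000 on an array, and the median of those 8 was 6087 and 8568 in spleen, 553 and 333 in intestine, with 522 and 407 in skin. The 2 dimmer probes gave 438 and 618, and 225 and 251, in spleen, 32.8 and 15.0, and 9.40 and 18.6, in intestine, with 35.5 and 19.2, and 15.3 and 13.9, in skin. Thus bright and dim probes alike were far higher in spleen and at similar levels in the other 2 tissues. The last probe was not detected on any of the 6 arrays. Over the 10 probes kept, spleen minus intestine differences ran from 2.76 to 4.23 (median 4.06) and spleen minus skin differences from 2.88 to 4.22 (median 4.03). On the deposited signals, the spleen mean was 14.2 to 22.1 times the intestine mean and 14.1 to 19.3 times the skin mean, a range that includes the dim probes whose log2 differences the offset shrinks.

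**Figure D1:**
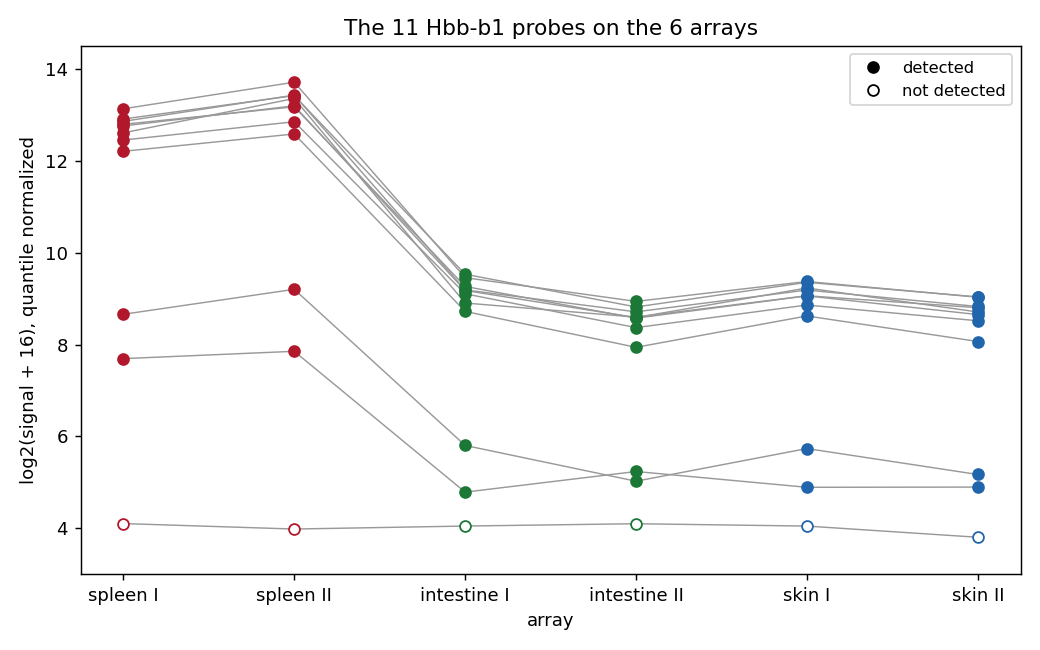
Each line is 1 of the 11 Hbb-b1 probes, with log2(signal + 16) after quantile normalization on the vertical axis and the 6 arrays (spleen, intestine, skin; replicates I and II) on the horizontal axis; open points were not detected. All 10 detected probes drop between the spleen and the intestine arrays and stay near that level in skin, and the last stays near the bottom of the plot.

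Hba-a1, for an adult α-globin chain, behaved like Hbb-b1. It had signals of 4099 and 6272 in spleen, against 421 and 240 in intestine and 366 and 274 in skin. Its differences were 3.98 ± 0.26 for spleen minus intestine and 4.04 ± 0.26 for spleen minus skin. The Euclidean distance between Hbb-b1 and Hba-a1 over the 6 arrays, each centred on its own mean log2 value, was 0.29, the smallest of the distances between members. Globins of other stages or haplotypes gave a different picture. Hbb-b2, the minor adult β-globin, was dim at 16.5 and 15.7 in spleen, 3.76 (not detected) and 9.85 in intestine, with 13.5 and 11.5 in skin. Its spleen minus intestine difference of 0.42 ± 0.15 passed (limma adjusted p = 0.0381) and its spleen minus skin difference of 0.16 ± 0.15 did not (adjusted p = 0.439). The embryonic β-like globin Hbb-y had differences of -0.25 ± 0.16 and -0.42 ± 0.16 in the same order and passed in neither (adjusted p = 0.227 and 0.0832). Near-identical β-globin copies can bind the same probe, so the split between them is uncertain.

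Alas2, the first enzyme of haem synthesis in erythroid cells, had signals of 185 and 310 in spleen, against 12.3 and 20.6 in intestine and 19.3 and 11.3 in skin. It was detected on all 6. Its differences were 2.64 ± 0.24 for spleen minus intestine and 2.87 ± 0.24 for spleen minus skin. The ratio of mean deposited signals was 15.1 against intestine and 16.2 against skin, beside 15.7 and 16.2 for Hba-a1, so the ratios of the 2 genes were close while their log2 differences, which the offset shrinks for dim probes, were not.

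The red cell membrane genes were likewise above the other tissues in spleen. Slc4a1, the anion exchanger of red cells, had 85.6 and 118 in spleen, against 3.46 and 0.0995 (neither detected) in intestine and 12.2 and 1.08 (the second not detected) in skin. Its spleen minus intestine difference was 2.46 ± 0.23, with spleen at least 4.21-fold higher, where the bound sets the spleen mean against the lowest detected level of the intestine arrays. Its spleen minus skin difference was 2.22 ± 0.23. Sptb, the erythroid β-spectrin, was close to the detection limit even in spleen, at 7.69 and 11.3, and was detected on no intestine array (0.934 and 2.83) and no skin array (0.207 and 2.01). Its differences of 0.53 ± 0.14 and 0.60 ± 0.14 correspond to spleen at least 1.09-fold higher than intestine and at least 1.09-fold higher than skin. In both membrane genes the 2 spleen arrays lay above all 4 others.

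Nfe2, the larger subunit of the NF-E2 factor, stood apart from the other members by its level in skin. It had 59.3 and 70.8 in spleen, against -1.02 and -2.15 (neither detected) in intestine and 16.7 and 12.8 (both detected) in skin. Spleen was at least 2.92-fold higher than intestine, with a difference of 2.24 ± 0.14, and exceeded skin by 1.21 ± 0.14, a ratio of mean signals of 4.42. The 3 tissues did not overlap. Nfe2 was the only member that passed between intestine and skin.

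Slc40a1, the iron exporter, had 116 and 115 in spleen, against -0.66 and -1.70 in intestine and -2.09 and -4.54 in skin. It was detected on both spleen arrays and on none of the other 4. Its differences were 2.91 ± 0.14 against intestine and 3.08 ± 0.14 against skin, with spleen at least 4.76-fold and at least 4.74-fold higher. The 4 arrays without detected Slc40a1 were ones on which the globins and Alas2 were detected. The offset sets the size of the log2 difference of such dim probes: between offsets of 4 and 50, spleen minus intestine ran from 5.10 to 1.58 for Slc40a1, from 4.50 to 1.09 for Nfe2, from 3.91 to 1.36 for Slc4a1 and from 1.25 to 0.21 for Sptb.

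**Figure D2:**
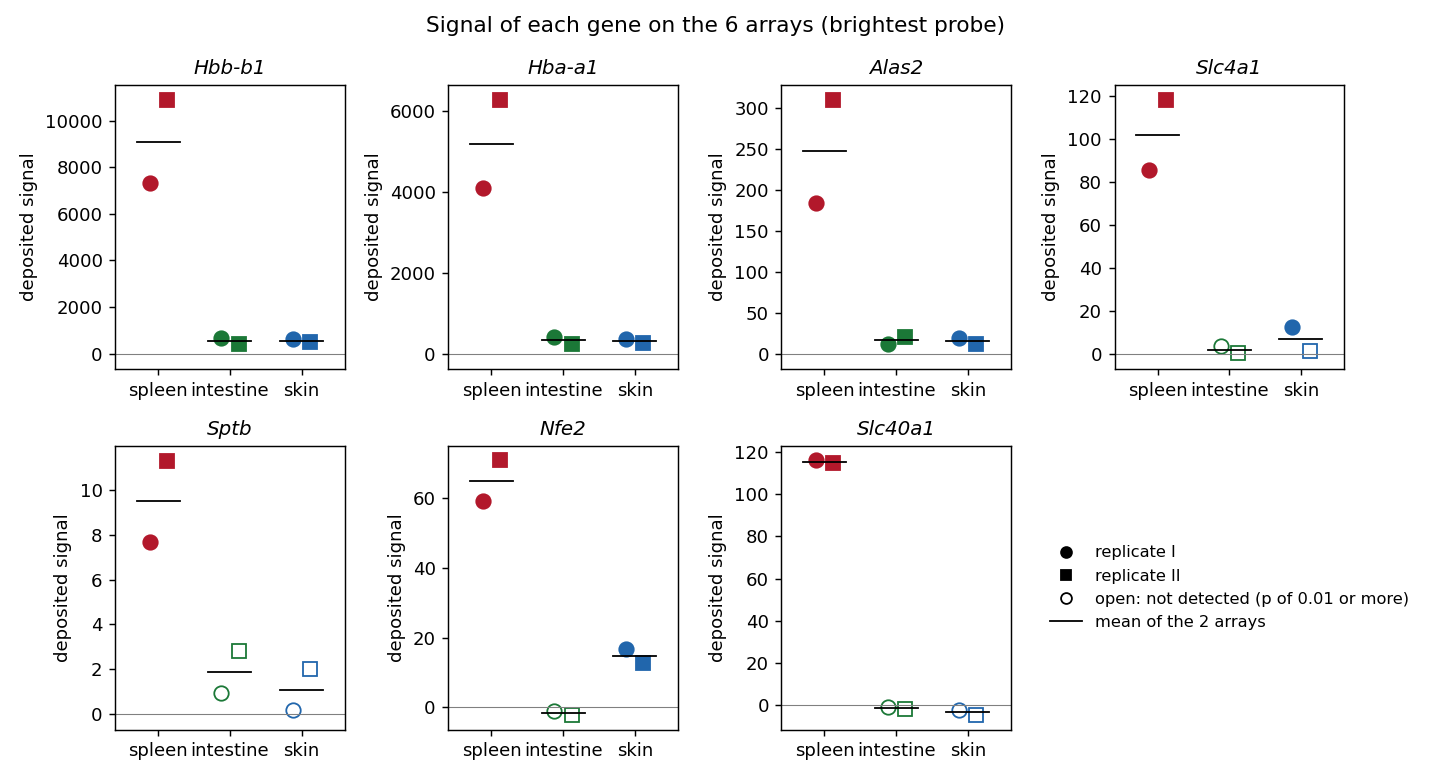
Deposited signal (vertical axis, linear, a scale of its own in each panel) of the brightest probe of each of the 7 genes in spleen, intestine and skin; circles are replicate I, squares replicate II, open symbols not detected, and lines the mean of the 2 arrays. Spleen is above both other tissues in every panel, Nfe2 is detected in skin but not in intestine, and Slc40a1 lies at or under 0 in both.

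In the comparison that the choice of members did not use, intestine against skin, 1 of the 7 members was called, Nfe2, which was lower in intestine. Its difference was -1.04 ± 0.14 (limma adjusted p = 0.000348), with skin at least 1.26-fold higher, and it was -1.07 within slide 1 and -0.997 within slide 2. It was -2.83 with an offset of 4 and -0.40 with an offset of 50, and passed with both. Of all probes tested, 16.7% were called higher and 19.5% lower in intestine than in skin, and of all genes 16% and 22.1%, beside 1 of 7 members. Slc4a1, Sptb and Slc40a1 had passed the detection filter through spleen alone, so the members' count is not read against these shares. Of the 10 Hbb-b1 probes, 0 were called by limma and 0 had an unadjusted p under 0.05, with differences from -0.18 to 0.12 and adjusted p from 0.581 to 0.992. Their 95% intervals ran at the widest from -0.70 to 0.59. Hba-a1 differed by 0.07 (95% interval -0.51 to 0.65, adjusted p = 0.865) and Alas2 by 0.23 (-0.30 to 0.77, adjusted p = 0.493). Slc4a1 differed by -0.24 (-0.75 to 0.27, adjusted p = 0.452), Sptb by 0.07 (-0.25 to 0.38, adjusted p = 0.745) and Slc40a1 by 0.17 (-0.15 to 0.49, adjusted p = 0.395). Slc40a1 and Sptb were detected on no array of either tissue and Slc4a1 on 1 skin array, so their comparisons are mainly of undetected signals. A p that misses the threshold does not show equal levels.

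**Figure D3:**
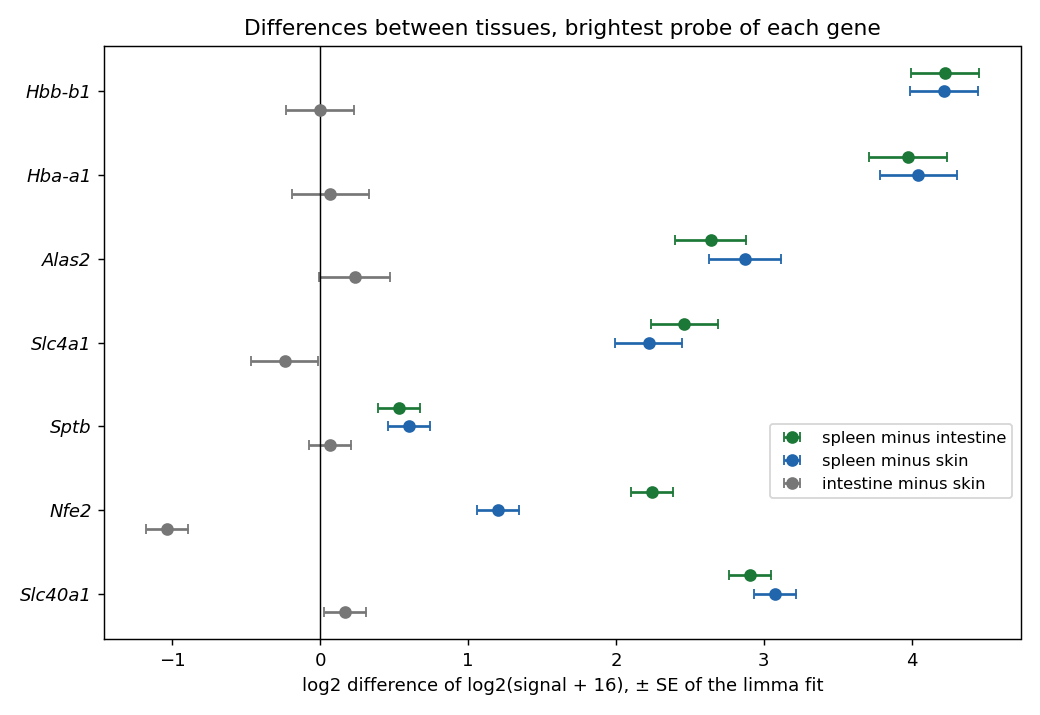
Log2 differences (horizontal axis, log2(signal + 16) scale, ± SE of the limma fit on 6 arrays) of the brightest probe of each of the 7 genes for spleen minus intestine, spleen minus skin and intestine minus skin. The spleen differences of Hbb-b1 and Hba-a1 are near 4 and those of Sptb at 0.53 and 0.60, while only Nfe2 is clearly away from 0 between intestine and skin, at -1.04.

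The 6 red cell members were higher on spleen replicate II than on spleen replicate I, and ferroportin was level between them. Replicate II over replicate I in spleen was 1.49 for the brightest Hbb-b1 probe, 1.53 for Hba-a1, 1.68 for Alas2, 1.38 for Slc4a1, 1.47 for Sptb and 1.19 for Nfe2. For Slc40a1 it was 0.991. In intestine and skin, replicate II was under replicate I for the brightest probe of both member globins, at 0.636 and 0.786 for Hbb-b1 and 0.569 and 0.749 for Hba-a1. The dimmest kept Hbb-b1 probe went the other way in intestine, at 1.98, and so did Alas2, at 1.67 in intestine, with 0.586 in skin. Spleen minus intestine differences of Hbb-b1 were therefore 3.68 within slide 1 and 4.77 within slide 2, and those of Slc40a1 were 2.87 and 2.94. Eraf, listed in the file as erythroid associated factor and known as a chaperone of free α-globin, had 44.9 and 75.1 on spleen replicates I and II and was not detected elsewhere. Of the 23 tested genes of the list of other red cell genes, 17 were higher and 6 lower on spleen replicate II than on replicate I, with a median log2 difference of 0.10. Among the 6 were Hbb-b2, Hbb-y (9.05 and 5.84 on spleen replicates I and II) and Car2 (607 and 569). The share over all genes was not computed, so the 17 of 23 is a description and is not read as particular to red cell genes. In lists described below, genes higher and lower on spleen replicate II were 11 and 7 (macrophages) and 9 and 8 (NK cell identity). They were 10 and 13 for iron uptake, storage and haem breakdown, and 2 and 7 for T and B cells. The neutrophil gene S100a8 had 2.92 (not detected) and 81.1, and 3 and 8 of 20 measured neutrophil genes were detected on spleen replicates I and II. The part of neutrophils in the red cell signals was not tested.

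**Figure D4:**
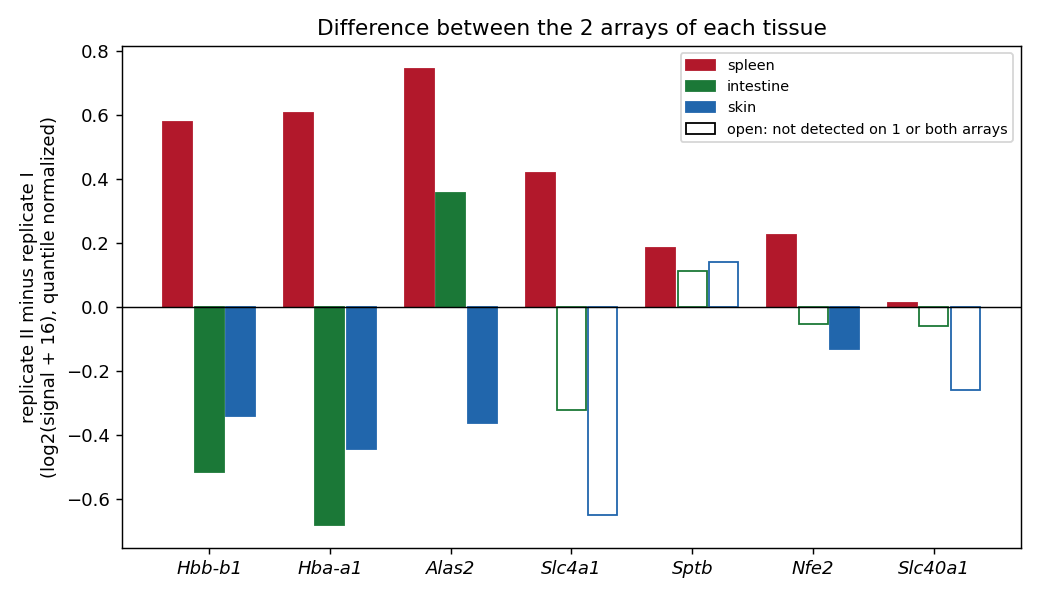
Difference of replicate II minus replicate I on the log2(signal + 16) scale, quantile normalized, for the brightest probe of each of the 7 genes (horizontal axis) in spleen, intestine and skin; open bars were not detected on 1 or both arrays. Spleen bars reach 0.75 for Alas2, lie above 0 for the other red cell genes, and are at 0.01 for Slc40a1, while globin bars of intestine and skin lie under 0.

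The members were set beside 10 lists of other genes, 281 genes in all. Of 13455 genes tested, 27.8% were called higher and 20.5% lower in spleen than in intestine, 10.8% higher and 12.3% lower in spleen than in skin, and 16% higher and 22.1% lower in intestine than in skin. The medians over all genes were 0.04, -0.0036 and -0.08 in that order of comparisons.

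Against intestine the calls of other red cell genes went both ways, near the shares of all genes, and against skin those called were higher in spleen. Of 50 listed genes, 43 were measured and 23 tested. Against intestine 6 were called higher and 5 lower, with 12 not called and a median of -0.08. Of the 5 lower genes, 1 had passed the detection filter through intestine alone. Against skin 5 were called higher and 0 lower (2 lower at an unadjusted p under 0.05), with 18 not called and a median of 0.16. The counts fell when spleen replicate II was left out, and against skin also when replicate I of spleen or of skin was left out. Calls over all probes fell in the same fits, which leave 1 array in a tissue. Of the 23 tested genes, 5 had passed the detection filter through spleen alone. They made up 2 of the 6 genes higher than in intestine and 2 of the 5 higher than in skin. Lmo2, a partner of erythroid and other haematopoietic factors, was among these 5. It exceeded intestine by 0.73 and skin by 0.57, which is a description. Car2, a carbonic anhydrase of red cells and other tissues, was lower in spleen than in intestine and higher in spleen than in skin. Its differences were -1.68 ± 0.13 and 1.13 ± 0.13 (adjusted p = 8.4e-06 and 0.00101). Epb41, which encodes the membrane skeleton protein 4.1R, was lower in spleen than in intestine, at -0.85 ± 0.16 (adjusted p = 0.00183). Klf1, the erythroid factor that binds CACC boxes, was detected on none of the 6 arrays, and Gata1, the erythroid GATA factor, on 1 intestine array only.

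Haem synthesis apart from Alas2 showed smaller differences. Of 21 tested genes of haem synthesis and mitochondrial iron, 7 were called higher and 1 lower in spleen than in intestine (median 0.32), 1 higher and 0 lower in spleen than in skin (0 lower at an unadjusted p under 0.05, median -0.02), and 2 higher and 5 lower in intestine than in skin (median -0.28). With replicate I or replicate II of spleen left out, 1 gene was called higher in spleen than in intestine, and with median scaling or the deposited scaling alone 13 were. Alas1, which starts haem synthesis outside the erythroid lineage, had 238 and 246 in spleen, 105 and 97.1 in intestine, with 211 and 179 in skin. It exceeded intestine by 0.73 ± 0.14 (adjusted p = 0.00223) and differed from skin by 0.05 ± 0.14 (adjusted p = 0.822). Later enzymes of the pathway, Alad, Uros and Urod, were called between the same tissues, with spleen minus intestine differences of 0.48, 0.56 and 0.40 and intestine minus skin differences of -0.63, -0.62 and -0.48. Fech, which inserts the iron into haem, differed by -0.10 and -0.02 between spleen and the other tissues and passed in neither (adjusted p = 0.672 and 0.947). The genes of iron-sulphur cluster assembly were mixed, with Isca1 lower in spleen than in intestine, at -1.18 ± 0.15 (adjusted p = 0.000152) and Nfs1 higher at 0.58 ± 0.18 (adjusted p = 0.0228).

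Genes of iron uptake, storage and haem breakdown were mixed in spleen. Of 23 tested, 4 were called higher and 8 lower in spleen than in intestine (median -0.31). Between spleen and skin, 1 was higher and 4 lower in spleen (median -0.23). Between intestine and skin, 9 were higher and 3 lower in intestine (median 0.24). Among both the 8 and the 9 was 1 gene that had passed the detection filter through intestine alone. Against skin the balance depended on the scaling, with 6 higher and 2 lower in spleen under median scaling, and 1 was lower when spleen replicate I, spleen replicate II or skin replicate I was left out. Tfrc, the transferrin receptor that takes up iron, had 60.4 and 59.9 in spleen, 351 and 213 in intestine, with 117 and 118 in skin. Its differences were -2.29 ± 0.18 and -1.07 ± 0.18 for spleen against intestine and skin (adjusted p = 9.45e-06 and 0.00541). Transferrin itself, Trf, was lower in spleen than in intestine, at -3.52 ± 0.15 (adjusted p = 2.79e-07). The ferritin genes Fth1 and Ftl1, which store iron, were lower in spleen than in intestine, at -1.23 ± 0.16 and -0.95 ± 0.14 (adjusted p = 0.000173 and 0.000444), and neither passed between spleen and skin (-0.25 and -0.36, adjusted p = 0.254 and 0.0885). Hmox1, the haem oxygenase that opens the haem ring, was the 1 gene of the list higher in spleen than in skin. It had 43.9 and 43.4 in spleen, 25.1 and 10.3 in intestine, with 5.38 and -0.705 (neither detected) in skin. Its differences were 0.56 ± 0.25 against intestine (adjusted p = 0.0848) and 1.53 ± 0.25 against skin (adjusted p = 0.00409). Slc11a2, which carries iron out of endosomes, exceeded intestine by 1.05 ± 0.14 on its brightest probe (adjusted p = 0.000268), while its other 2 probes had the other sign, at -0.86 and -0.76.

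Macrophage genes were detected more often in spleen than in the other tissues. Of the 33 macrophage genes measured, 17 and 18 were detected in spleen, 4 and 5 in intestine, with 6 and 5 in skin. Of 18 tested genes of red pulp and other macrophages, 11 were called higher and 1 lower in spleen than in intestine (median 0.82), and 12 higher and 0 lower in spleen than in skin (0 lower at an unadjusted p under 0.05, median 0.79). Of these 18, 13 had passed the detection filter through spleen alone and so entered by being high there. They made up 10 of the 11 genes higher than in intestine and 10 of the 12 higher than in skin. Of the other 5 genes, 1 and 2 were called higher. The counts and medians are therefore a description, as are the differences of the genes named below. Against skin, 7 were called on leaving out spleen replicate I and 5 on leaving out spleen replicate II, and with detection required on all 6 arrays 0 were called higher than in intestine and 1 higher than in skin. On its brightest probe Vcam1, an adhesion molecule of red pulp macrophages and vessels, had 74.1 and 81.0 in spleen, against 0.617 and 8.12 in intestine and 6.53 and 1.08 in skin. This probe was detected in spleen only, with differences of 1.99 ± 0.19 and 2.05 ± 0.19, and the other Vcam1 probes were detected on no array. The complement genes C1qa, C1qb and C1qc exceeded intestine by 0.59, 1.11 and 1.01 and skin by 0.80, 1.11 and 1.09. Lyz2, a lysozyme of macrophages and neutrophils, exceeded them by 1.53 and 1.10, and Sirpa, the receptor that reads CD47 on red cells, by 1.44 and 1.11. The summed signal of the 33 genes was 535 and 562 (spleen), 265 and 284 (intestine), and 233 and 257 (skin). Spic, the factor that red pulp macrophages depend on, was detected on none of the 6 arrays, and Cd5l, which they secrete, on neither spleen array. The part of macrophages in the Slc40a1 and globin signals was not tested.

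Markers of other cells were mixed. Of the 9 tested genes of megakaryocytes and platelets, 3 were called higher and 2 lower in spleen than in intestine, with 3 and 3 in spleen than in skin, and Pf4 and Itga2b, which define that lineage, were detected on no array. Against skin both counts were 0 when spleen replicate I was left out. Gp1bb, a platelet receptor chain, exceeded intestine by 1.39 ± 0.14 and skin by 0.64 ± 0.14 (adjusted p = 4.2e-05 and 0.0146), and it was lower in intestine than in skin, at -0.76 ± 0.14 (adjusted p = 0.00225), the order in which Nfe2 also stood. Itgb3, an integrin chain of platelets and other cells, had another order, lower in spleen than in intestine at -1.49 ± 0.16 and higher in intestine than in skin by 1.52 ± 0.16 (adjusted p = 4.92e-05 and 5.42e-05). F2rl2, a protease-activated receptor, was higher in spleen than in intestine by 0.81 ± 0.16 and lower in spleen than in skin at -0.83 ± 0.16 (adjusted p = 0.00228 and 0.00799). The part of platelets or megakaryocytes in the Nfe2 signal was not tested. Of the 3 tested neutrophil genes, Mmp9 was higher in spleen than in skin (0.68, limma adjusted p = 0.0363). It did not pass between spleen and intestine (-0.18, adjusted p = 0.487). Camp, which passed the detection filter through spleen alone, had spleen differences of 0.69 against skin and 0.29 against intestine, as a description. Of the 6 tested genes of endothelium and splenic stroma, 1 was lower in spleen than in intestine and 0 were called between spleen and skin by limma, with 2 lower at an unadjusted p under 0.05. Of 9 tested T and B cell genes, 3 were higher and 3 lower in spleen than in intestine, with 3 and 1 in spleen than in skin, and 0 higher than in skin on leaving out any 1 of the 4 spleen and skin arrays. Of these 9 genes, 1 had passed the detection filter through spleen alone and was among the higher calls of both comparisons, which is a description. Cd3g was lower in spleen than in intestine, at -2.35 ± 0.25 (limma adjusted p = 6.04e-05). Cd8a, detected on both intestine arrays only, was 1 of the 3 lower than in intestine. It had passed the detection filter through intestine alone, so its difference of -1.19 ± 0.26 is a description. NK cell identity genes were called higher in spleen than in intestine in 13 of 17 and higher than in skin in 7 of 17. None was called lower in either, and 1 was lower in each at an unadjusted p under 0.05. Among the 17, 1 had passed the detection filter through spleen alone and was among the higher calls of both comparisons. Of the other 16 NK cell genes, 12 were called higher than in intestine and 6 higher than in skin. Of the 17, 11 were lower in intestine than in skin, as Nfe2 was. Against skin, 2 were called higher on leaving out spleen replicate I, 1 on leaving out spleen replicate II or skin replicate I and 4 on leaving out skin replicate II, while median scaling called 12. Between intestine and skin, 7 were lower when intestine replicate I or skin replicate II was left out. The part of NK cell differences in the member signals was not tested.

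Relatives of the members that are not specific to red cells were mixed in spleen. Of 13 tested, 3 were called higher and 5 lower in spleen than in intestine (median -0.12). Between spleen and skin, 1 was called higher and 4 lower in spleen (median -0.23). Epb41l3, which had passed the detection filter through spleen alone, was 1 of the 3 and was the 1 higher than in skin, as a description. Under median scaling 4 were higher and 0 lower in spleen than in skin, and 0 were lower when spleen replicate I, spleen replicate II or skin replicate II was left out. The small Maf proteins pair with NFE2 and its relatives, and Maff and Mafg were lower in spleen than in intestine, at -4.07 ± 0.21 and -1.35 ± 0.16 (adjusted p = 7.17e-07 and 0.000111). Both were also lower in spleen than in skin, at -0.83 ± 0.21 and -0.63 ± 0.16 (adjusted p = 0.0215 and 0.0221). Nfe2l2, the widely expressed relative of Nfe2 that acts in oxidative stress, was lower in spleen than in intestine, at -0.84 ± 0.20 (adjusted p = 0.00686) and higher in intestine than in skin by 1.38 ± 0.20 (adjusted p = 0.000498), against the -1.04 of Nfe2. Slc4a7, a bicarbonate carrier of the Slc4a1 family, was lower in spleen than in intestine, at -0.88 ± 0.17 (adjusted p = 0.00231).

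**Figure D5:**
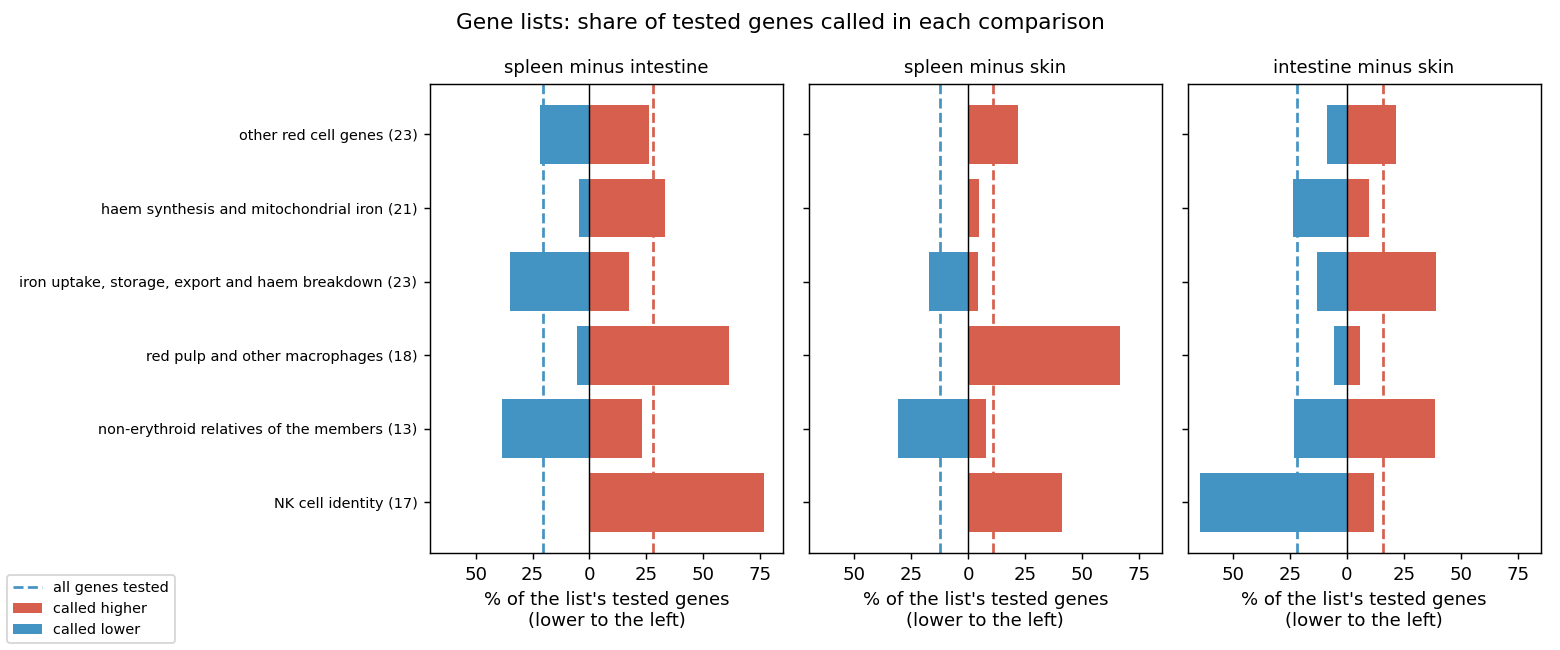
Share of the tested genes of 6 lists (number tested in brackets) called higher (red, to the right) or lower (blue, to the left) in spleen minus intestine, spleen minus skin and intestine minus skin; dashed lines are the shares over all 13455 genes. The macrophage and NK cell lists pass the dashed line to the right in both spleen comparisons. Through spleen alone, 13 of 18 macrophage genes and 1 of 17 NK cell genes had passed the detection filter. Other red cell genes lie near it against intestine and pass it against skin, with 5 of their 23 genes tested through spleen alone.

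Genes whose pattern lay closest to Hbb-b1 were taken by the Euclidean distance over the 6 arrays. They were Fcgr2b (2.36), Gm11346 (2.37), Clip4 (2.62), Cma1 (2.64) and As3mt (2.66), all far beyond the 0.29 between Hbb-b1 and Hba-a1. Fcgr2b, an inhibitory Fc receptor, had 260 and 266 in spleen, 10.04 and 6.88 in intestine, with 47.5 and 45.9 in skin. Cma1, listed as Mcpt5 in the file and encoding a mast cell protease, had 798 and 691, then 19.2 and 29.0, then 200 and 134 in the same order of tissues. Both were lower in intestine than in skin (-1.35 ± 0.15 and -2.04 ± 0.20, adjusted p = 0.000104 and 4.35e-05), where Hbb-b1 was not. The nearest genes to Slc40a1 were Vcam1 (1.20), As3mt (1.35), 9130020K20Rik (1.36), 3110005M07Rik (1.40) and Gm11346 (1.44). Among the members, Slc40a1 lay nearest to Alas2 (0.66), and Alas2 and Slc4a1 were 0.88 apart. A distance on this scale also reflects how bright a probe is, since the offset shrinks the differences of dim ones.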

How the data were processed

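The 6 arrays measured RNA of sorted NK cells, taken up with RNeasy Micro columns and turned into biotin-labelled cRNA per the labels' protocols, and read with BeadStudio 1.5.1.3 per the submitters' processing notes. The deposited signal is the average bead intensity of each probe per the file headers, and its values show that background had been subtracted and each array scaled to a mean of 83.1, 2 steps that the labels leave out. A detection p-value was deposited for each probe, per the file headers. A second deposited table holds the same intensities before scaling. No genome was aligned to, and RefSeq (GRCm38.p6) gave names and promoters only.

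Of 46643 probes, 20147 had a current symbol, 12968 an older one that was translated, 199 an ambiguous one, 11602 one kept as in the file and 1727 none. Signals were offset by 16, log2-transformed and quantile normalized. Probes detected (p under 0.01) on both arrays of some tissue were kept (18583, of which 16 of 17 member probes), and the 3 tissue comparisons were fitted together with limma 3.58.1 in R 4.3.3 (3 residual and 6.92 prior degrees of freedom). P-values were adjusted by Benjamini-Hochberg over the 18583 probes at 0.05. A gene was represented by its brightest kept probe, giving 13455 genes. Where a probe was detected on no array of 1 tissue, the fold is a bound, taken as the mean normalized log2 value of the other tissue against that of the lowest detected probe of each array. The number of arrays limits the precision, and groups of 2 allow no test for an outlying array.

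Per the headers, the arrays numbered I shared slide 1 and those numbered II shared slide 2. Same-numbered arrays deviated together only weakly, with correlations over 18583 probes of 0.143 (spleen and intestine), 0.193 (spleen and skin) and 0.107 (intestine and skin). The pairing of the samples by slide rests on the headers, not on these correlations. The fit was also run with that block.

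The members and the gene lists were chosen with earlier results of these data known. Genes named were the members, up to 3 called genes with the largest difference per list and comparison, a fixed set of defining genes, and the 5 genes nearest to Hbb-b1 and to Slc40a1. Alad, C1qb, C1qc, Cd3d, Eraf, Fech, Hbb-y, Lmo2, Uros and Urod were named after their values were seen. The fixed set also held Ahsp and Hba-a2, which matched no symbol. Some genes that the rule names are not reported here. Eraf is no member of a list and was not counted. The fit was tested on simulated data with known differences.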

Additional observations from a re-analysis of the deposited data

How the results depend on the processing

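Results were recomputed with offsets of 4 and 50, median scaling, the deposited scaling alone, no filter on detection, detection on all 6 arrays, the unscaled value table, 1 probe per gene, a replicate block, and without each array in turn. The spleen differences of the 7 genes kept their sign in every fit that tested them. Slc4a1, Sptb, Nfe2 and Slc40a1 were not tested under detection on all 6 arrays. Nfe2 stayed called between intestine and skin in 14 of 14 alternatives (adjusted p from 0.00013 to 0.00688). Uncalled intestine minus skin differences that changed sign were Hba-a1 at -0.26 without intestine replicate I, -0.15 without skin replicate II and -0.050 on replicates II alone, Hbb-b1 at 0.25 without intestine replicate II, 0.17 without skin replicate I and 0.084 on replicates I alone, Alas2 at -0.13 on replicates I alone, and Slc4a1 at 0.084 and Sptb at -0.0014 without skin replicate I. Over the arrays left out, Hba-a1 reached up to 0.41, Slc4a1 down to -0.56 and Sptb up to 0.13. With the replicate block, 9483, 5114 and 7218 probes were called in spleen minus intestine, spleen minus skin and intestine minus skin, beside 8822, 4253 and 6727 without it, and no member's call changed. Block counts that moved by over 1.5 times were of lists with 1 or 2 calls at most in that direction. Leaving out 1 array gave 5040 to 9274, 573 to 6280 and 4808 to 7534 called probes in the same order. The lowest counts between spleen and skin were 573 and 596 without spleen replicate I or II and 1004 without skin replicate I, with 2532 without skin replicate II. Those counts for spleen minus skin were 2470 with an offset of 4, 7059 with median scaling and 2277 with no filter. Other red cell genes called higher in spleen than in intestine were 1 to 7 over the arrays left out (1 without spleen replicate II), and in spleen than in skin 1 to 6 (2 without spleen replicate I, 1 without spleen replicate II, 2 without skin replicate I). They were 3 against skin with an offset of 4, 3 with no filter and 3 under detection on all 6 arrays, and 3 against intestine under that filter. Macrophage genes called higher were 10 to 11 against intestine and 5 to 12 against skin over the arrays left out (7 and 5 without spleen replicate I or II), and 0 and 1 under detection on all 6 arrays, a filter that removes genes undetected outside spleen. The cause of the other changes was not tested. Scaling moved the balance of calls: 58.1%, 53% and 46% of called probes were higher in the first-named tissue, against 77.4%, 78% and 37.5% with median scaling, where the median probe lay at 0.29, 0.22 and -0.11, and 75.3%, 69.3% and 33.6% with the deposited scaling alone, where it lay at 0.27, 0.15 and -0.15. In the main fit, with quantile normalization, the median probe lay at 0.07, 0.04 and -0.05. Dim probes were measured less well on the intestine and skin arrays, whose lowest detected signals were 5.65 and 8.87, and 9.94 and 7.74, beside 4.57 and 4.36 in spleen.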
